A study of Mus musculus with 8 samples.

Results

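The 8 protein-coding genes *Hpgd*, *Cep44*, *Fbxo8*, *Scrg1*, *Sap30*, *Hmgb2*, *Galnt7* and *Galntl6* flank *Hand2* on mouse chromosome 8. They were chosen by position and are 8 of the 21911 protein-coding genes in the mm10 annotation used. *Hand2* encodes a progesterone-induced transcription factor of the uterine stroma, and its promoter serves here as a reference for its neighbors. The peak lists came from chromatin immunocleavage sequencing (ChIC-Seq), in which an antibody brings a nuclease to the chromatin that holds its antigen and the DNA released by the cut is sequenced. One antibody recognized PBRM1 and the other BRG1, with 3 replicates each, and every group was WT primary uterine stromal cells from mice of 8 to 12 weeks on D4. The sample labels give day 4 of pregnancy as the time, whereas the protocol names pseudopregnant D4 mice and the uteri of 5 to 10 mice as the source of the cells, which were plated for some hours before use. The labels give no gene deletion and no treatment beyond mating, so every comparison is between the antibodies or between sites. The study describes them as biological replicates. The labels do not say which pools of animals they came from, so p-values measure the spread between these libraries. The labels give 50000 cells and 5 minutes of fixation for each library. The 2 IgG libraries were not analysed here. MACS called the peaks of each list without a control, with the background taken from the fragments of the same list.

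SWI/SNF complexes use the energy of ATP to slide or evict nucleosomes. BRG1 is a motor subunit and is found in several forms of the complex, whereas PBRM1, which reads acetylated histones through its bromodomains, is a subunit of the form called PBAF. A peak of either antibody marks where fragments accumulated, and it does not measure the transcription of the gene beside it. The fold enrichment given throughout is the authors' ratio of fragments at a peak summit to the local background of the same library, and values are for replicates 1, 2 and 3 in that order.

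The 8 genes have varied functions. *Hpgd* encodes the dehydrogenase that inactivates prostaglandins, *Cep44* a centrosomal protein, *Fbxo8* an F-box protein, and *Scrg1* a small secreted protein linked to cartilage formation. *Sap30* encodes a subunit of the SIN3 histone deacetylase complex and *Hmgb2* a high mobility group protein that bends DNA. *Galnt7* and *Galntl6* belong to the family of Golgi enzymes that start mucin-type O-glycosylation. Relative to the *Hand2* transcription start site (TSS), and with negative values upstream, the TSS of *Hpgd* lay at −1026.4 kb and those of *Cep44* and *Fbxo8*, which face away from each other, both at −769.9 kb. Downstream of *Hand2*, the TSS distance was 135 kb for *Scrg1*, 167 kb for *Sap30*, 191 kb for *Hmgb2*, 332 kb for *Galnt7* and 1592 kb for *Galntl6*, whose body alone covers 1139 kb. The whole neighborhood, from 2 kb outside *Hpgd* to 2 kb outside *Galntl6*, ran from position 56292585 to 58914640 of chromosome 8 in mm10.

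Both antibodies marked 7 of the 8 genes at their promoters and left *Scrg1* without a promoter peak. With a promoter defined as 2 kb on either side of any annotated TSS, *Hpgd*, *Cep44*, *Fbxo8*, *Sap30*, *Hmgb2*, *Galnt7* and *Galntl6* had a peak in all 8 lists, that is in the 3 replicates and the pooled list of each antibody. Among all protein-coding genes, 51.9% had a promoter peak in all 8 lists, 52.2% in all 3 PBRM1 replicates and 61.4% in all 3 BRG1 replicates. *Scrg1* had no promoter peak in any list, as did 26.5% of all protein-coding genes. With 8 genes, these counts are a description.

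**Figure D1:**
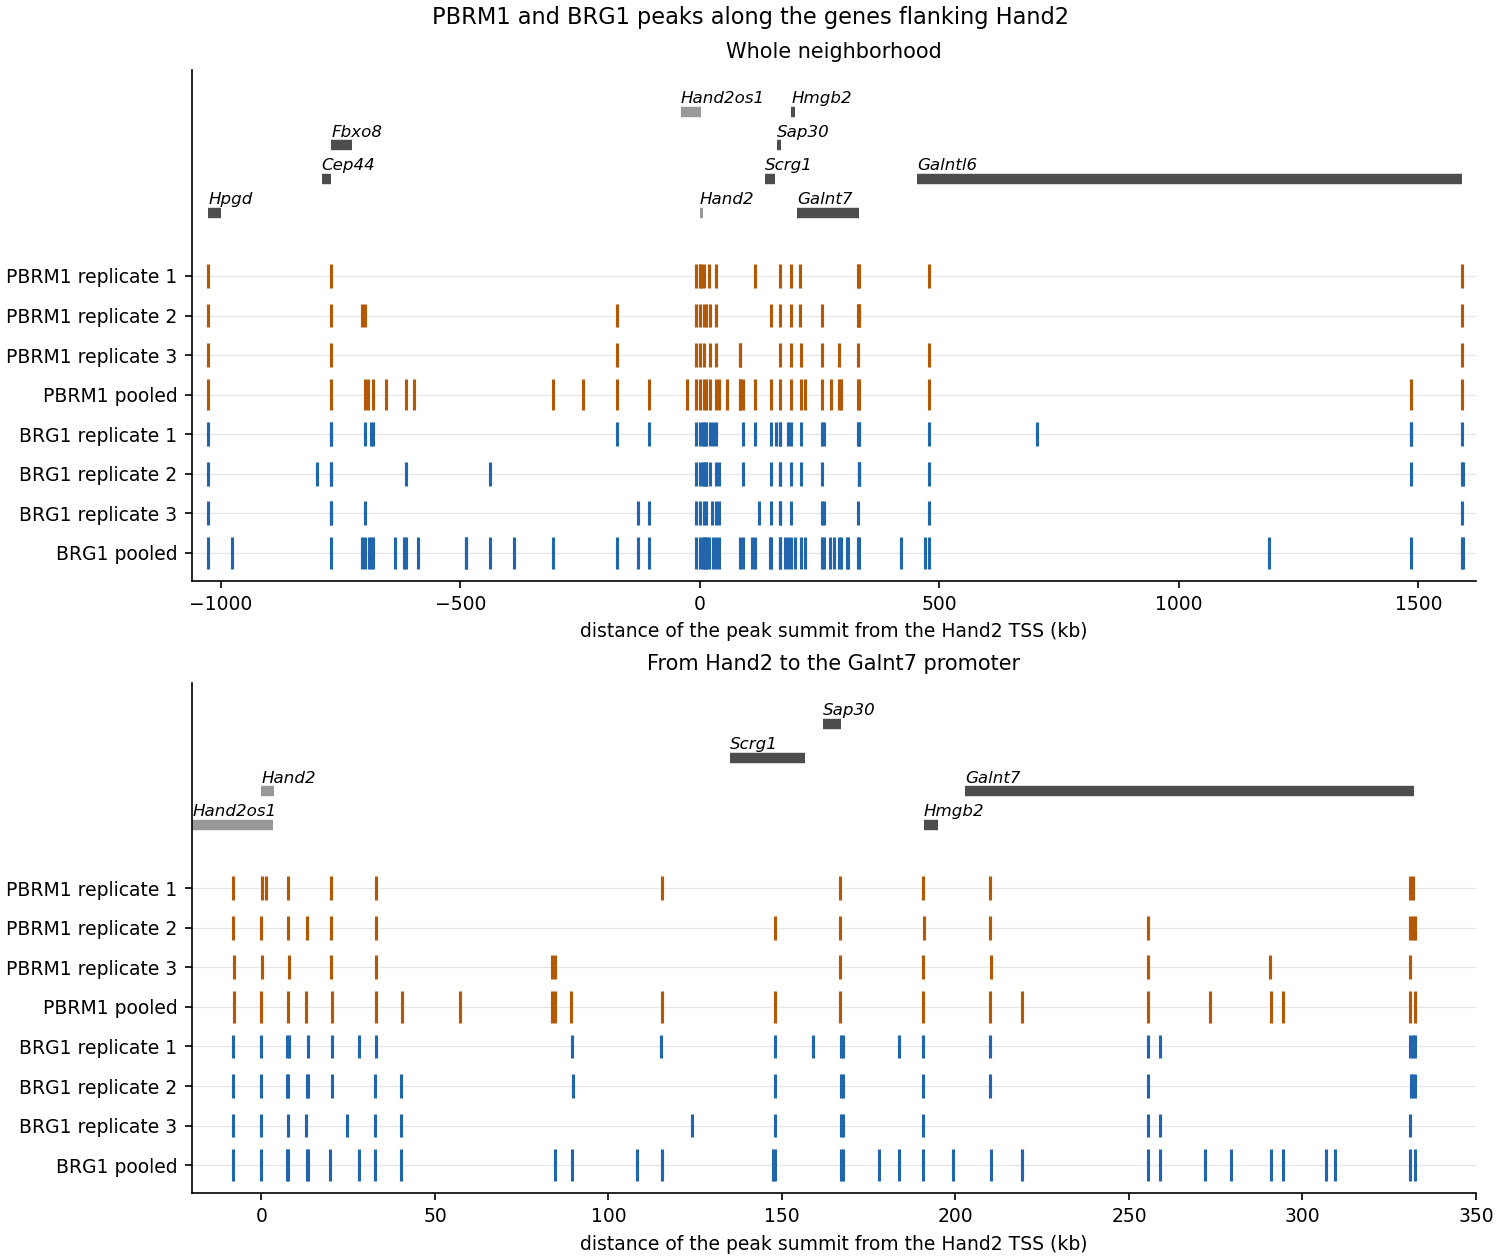
Position of each peak summit in the 8 lists as distance from the *Hand2* TSS in kb, for the whole neighborhood (top) and for the stretch from *Hand2* to the *Galnt7* promoter (bottom), with PBRM1 in orange, BRG1 in blue and gene bodies as gray bars. The promoters of 7 genes carry a tick in each of the 8 rows, whereas the long body of *Galntl6* and the region upstream of *Hand2* are sparsely marked.

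The neighborhood held 16, 20 and 18 PBRM1 peaks and 35, 29 and 23 BRG1 peaks in the replicates. As a share of each list, this was 6.96, 7.59 and 8.21 PBRM1 peaks and 8.62, 7.91 and 6.12 BRG1 peaks per 10000 peaks. The PBRM1 lists averaged 7.59 ± 0.625 and the BRG1 lists 7.55 ± 1.29 such peaks (SD, n = 3), with overlapping ranges (two-sided exact permutation test, p = 1, where 0.1 is the smallest p that 3 against 3 allows). In raw counts the groups did not overlap (18 ± 2 against 29 ± 6 peaks, p = 0.1 by the same exact permutation test), and the BRG1 lists are also longer throughout, with 36656 to 40610 peaks against 21912 to 26363. When the peaks of the 6 replicates were joined where they touched, they formed 48 sites, of which 10 were found in all 6 replicates. Of the 66623 sites of the genome, 19.6% were. Of those 10 sites, 6 were promoters of the 8 genes, 2 lay between *Hand2* and *Scrg1*, and 2 lay at *Hand2* and *Hand2os1*, the transcript on the opposite strand of *Hand2*.

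The *Hpgd* promoter had the highest BRG1 fold enrichment of the member promoters. The site spanned chr8:56294371-56294869 and covered the TSS and first exon of the gene. Its fold enrichment was 10.6, 8.59 and 8.27 with PBRM1 and 12.2, 15.2 and 11.6 with BRG1, so that every BRG1 value lay above every PBRM1 value. The peaks were narrow, between 362 and 446 bp, and all 6 summits fell 21 to 55 bp downstream of the TSS. Among the 10524 protein-coding promoter sites found in all 6 replicates, *Hpgd* stood at percentile 74.8 to 89.7 in the PBRM1 libraries and 82.2 to 98.2 in the BRG1 libraries. By pileup, the fragment coverage signal, it was not the highest. Its BRG1 pileups were 45, 45 and 37, against 66, 62 and 61 at *Sap30* and 70, 57 and 55 at *Hmgb2*.

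The bases directly upstream of the *Hpgd* start are shown because the peak begins within them. Here and below, capitals mark exact matches, on either strand, to any of 11 strings bound by known factors. One was the GC box, GGGCGG. The NF-Y box was read as CCAAT. For TEAD factors the string was GGAATG. The half-site of steroid receptors was read as AGAACA. The core of CTCF sites was read as AGGGGGC, which can run into a GC box. ETS factors were read as CCGGAAG. The NRF1 string was GCGCNTGCG. For YY1 it was AAGATGGC. The AP-1 string was TGANTCA. The string of GATA factors was AGATAA. The E-box was read as CATCTG. Promoter sequences are RefSeq's for GRCm38.p6, and 7 of the 8 genes had one. The *Hpgd* stretch is chr8:56294302-56294551 on the plus strand.
Hpgd: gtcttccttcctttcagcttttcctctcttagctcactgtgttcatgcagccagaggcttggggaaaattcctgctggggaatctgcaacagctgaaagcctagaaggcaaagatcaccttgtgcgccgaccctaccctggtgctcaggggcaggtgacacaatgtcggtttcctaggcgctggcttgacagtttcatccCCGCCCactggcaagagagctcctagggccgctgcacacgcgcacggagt
It held 1 GC box, a string that 32.7% of the 32851 RefSeq promoters have in the same 250 bases.

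*Cep44* and *Fbxo8* shared their promoter, and the antibodies differed there after the libraries were centered. The 2 genes are transcribed in opposite directions from starts at 56551047 and 56551090. The site found in all 6 replicates, chr8:56551063-56551833, lay on the *Fbxo8* side, with summits 191 to 276 bp downstream of the nearest annotated *Fbxo8* TSS, which is not the outermost one. Its fold enrichment was 12.7, 11.4 and 7.21 with PBRM1 and 7.51, 8.58 and 10.7 with BRG1. The highest 2 PBRM1 values stood above all BRG1 values and the remaining PBRM1 value below them all, so the raw ranges overlapped. In its own library, PBRM1 replicate 1 put this promoter at percentile 95.1 of the promoter sites, replicate 2 at 95.3 and replicate 3 at 78.2. BRG1 put it at percentiles 34.5, 49.0 and 73.5.

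On the *Cep44* side, at chr8:56550617-56550870, all 3 BRG1 replicates called a separate peak with fold enrichments of 6.60, 5.42 and 4.79, and no PBRM1 replicate did. The pooled lists did not keep this distinction, since a single peak of 1234 bp with PBRM1 and of 1253 bp with BRG1 covered both sides. The stretch shown is the start of the first *Fbxo8* intron, chr8:56551377-56551577 on the plus strand, directly after the exon that holds most summits.
Fbxo8: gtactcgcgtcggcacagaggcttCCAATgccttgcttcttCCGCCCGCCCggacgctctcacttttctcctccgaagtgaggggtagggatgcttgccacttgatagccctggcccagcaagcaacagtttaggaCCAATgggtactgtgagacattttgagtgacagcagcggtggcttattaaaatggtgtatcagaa
It held CCAAT at 2 places and a pair of overlapping GC boxes.

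*Sap30* and *Hmgb2* carried broad peaks. The *Sap30* site, chr8:57486934-57488079, covered the start of the gene and of the noncoding 2500002B13Rik on the opposite strand, and its peaks were 919 to 1142 bp wide. Its fold enrichment was 8.84, 7.37 and 6.81 with PBRM1 and 9.62, 10.5 and 10.0 with BRG1, with all BRG1 values above all PBRM1 values. The summits of the antibodies lay apart. The 3 PBRM1 summits were 36 to 199 bp downstream of the *Sap30* TSS, and the 3 BRG1 summits were 17 to 29 bp upstream of it. A short second peak at chr8:57488574-57488745, inside 2500002B13Rik, was called by BRG1 alone, at fold enrichments of 4.14, 4.10 and 4.05 in the replicates and 3.98 in the pooled list. Neither a PBRM1 replicate nor the pooled PBRM1 list had a peak there. Among the promoter sites of the genome found in all 3 BRG1 replicates, 4.90% had no peak in any PBRM1 replicate.

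At *Hmgb2*, the site chr8:57511065-57512247 had fold enrichments of 8.25, 7.17 and 6.78 with PBRM1 and 8.58, 9.02 and 8.28 with BRG1. The highest PBRM1 value and the lowest BRG1 value were nearly equal. The peaks were 1054 to 1133 bp wide, and the BRG1 summits lay 146 to 161 bp upstream of the TSS. The 250 bases before the RefSeq starts of these 2 genes, which the sites overlapped, are shown for comparison, *Sap30* from chr8:57487861-57488110 on the minus strand and *Hmgb2* from chr8:57511593-57511842 on the plus strand.
Sap30: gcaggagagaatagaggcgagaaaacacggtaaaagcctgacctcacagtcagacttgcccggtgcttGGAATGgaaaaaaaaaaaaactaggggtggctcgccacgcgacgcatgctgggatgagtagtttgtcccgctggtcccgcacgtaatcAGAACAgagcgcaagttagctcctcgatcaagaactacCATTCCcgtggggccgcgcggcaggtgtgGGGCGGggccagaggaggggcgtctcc
Hmgb2: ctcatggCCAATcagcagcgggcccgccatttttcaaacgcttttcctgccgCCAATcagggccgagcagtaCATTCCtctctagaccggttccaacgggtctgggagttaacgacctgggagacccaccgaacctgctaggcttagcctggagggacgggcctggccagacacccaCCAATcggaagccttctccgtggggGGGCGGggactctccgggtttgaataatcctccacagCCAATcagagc
Each held a GC box. *Hmgb2* had 4 copies of CCAAT, a string present at least once in 33.8% of RefSeq promoters and 4 or more times in 0.840%. *Sap30* had none, and held GGAATG on each strand and 1 copy of AGAACA, strings that 12.6% and 16.1% of promoters have.

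Among the 6 member promoter sites found in all 6 replicates, those of the 2 glycosyltransferase genes had the lowest mean enrichment. At *Galnt7* this site, chr8:57651561-57652616, gave 4.89, 3.89 and 3.12 with PBRM1 and 4.16, 5.11 and 4.35 with BRG1. These values stood at percentile 1.19 to 8.10 of the promoter sites in PBRM1 libraries and 2.56 to 7.79 in BRG1 libraries. The summits were 784 to 1159 bp downstream of the nearest annotated *Galnt7* TSS, which is not the outermost one, in the first intron, near the start of the noncoding AW046200 on the opposite strand. A second site at chr8:57652662-57652994 was called in replicates 1 and 2 of each antibody, at 3.65 and 4.16 with PBRM1 and 5.30 and 3.93 with BRG1. It was thus the higher of the 2 sites in PBRM1 replicate 2 and BRG1 replicate 1. Another, at chr8:57653321-57653673, was called in PBRM1 replicate 2 at 3.95 and in BRG1 replicates 1 and 2 at 3.75 and 3.36. The *Galntl6* site, chr8:58912083-58913263, overlapped the protein-coding gene BC030500 and gave 7.05, 6.14 and 4.80 with PBRM1 and 6.43, 5.30 and 5.40 with BRG1. Its 3 PBRM1 summits spread over 257 bp and its BRG1 summits over 336 bp, whereas the *Hpgd* summits of either antibody stayed within 24 bp. The pooled BRG1 peak, chr8:57651561-57652994, reached close to the outermost *Galnt7* start at 57653032, but its summit lay inside the gene. The window of 201 bp around that summit is shown for this reason, chr8:57651772-57651972 on the plus strand.
Galnt7: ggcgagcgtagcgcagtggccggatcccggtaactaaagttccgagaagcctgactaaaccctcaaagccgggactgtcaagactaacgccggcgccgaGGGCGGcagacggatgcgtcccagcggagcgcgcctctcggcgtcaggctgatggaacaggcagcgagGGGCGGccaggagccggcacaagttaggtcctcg
It held 2 GC boxes and 23 CpG dinucleotides, against a median of 12 CpG in the windows of the 29481 pooled BRG1 promoter peaks, of which 39.6% hold a GC box. The windows of the 6 member promoters were 60.2 to 66.2% G and C, against a median of 61.7% for these promoter peaks, and that of *Hand2* was 53.2%.

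**Figure D2:**
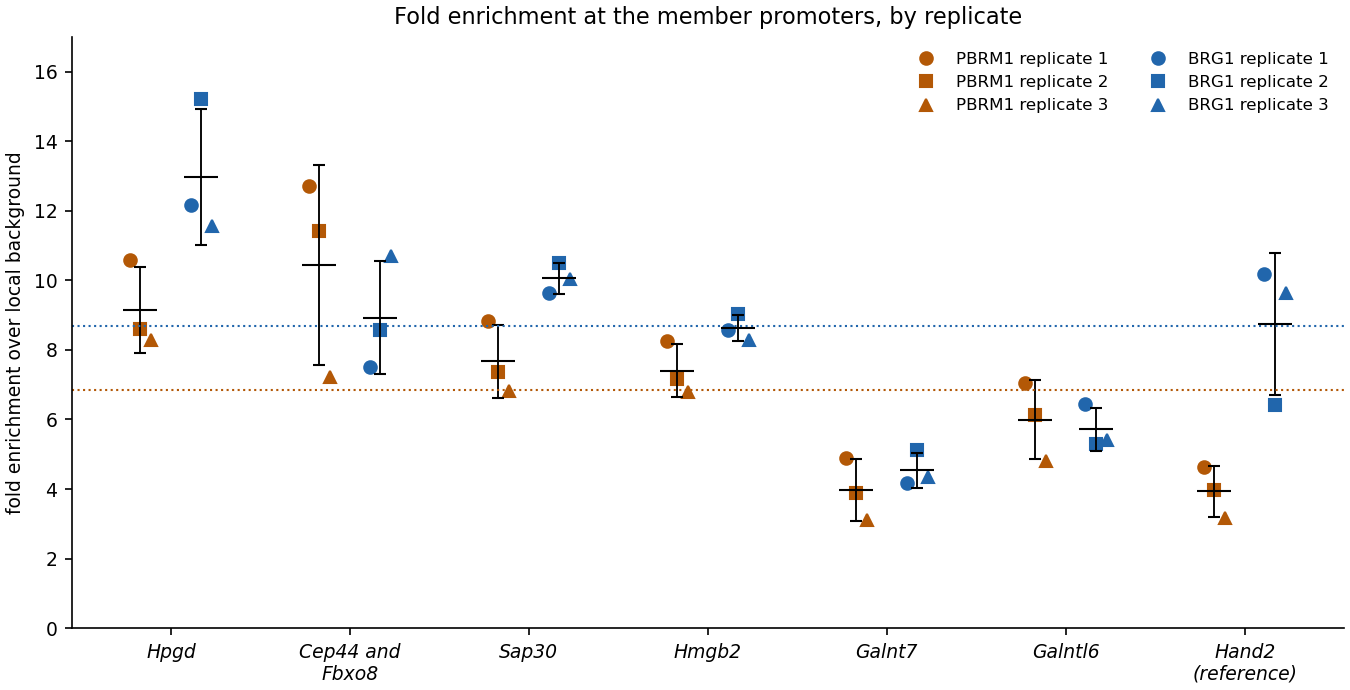
Fold enrichment over local background at the 6 member promoter sites and at *Hand2*, with a symbol for each replicate, PBRM1 in orange and BRG1 in blue, and the mean ± SD (n = 3) in black. Dotted lines are the median over protein-coding promoter sites found in all 6 replicates, 6.86 for PBRM1 and 8.69 for BRG1. *Galnt7* lies under both lines in every library, and the *Hand2* promoter lies under the PBRM1 line in every library and on both sides of the BRG1 line.

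PBRM1 replicate 1 gave the highest PBRM1 value and replicate 3 the lowest at each of these 6 promoters. The same order held for the median of all peaks in the lists, 5.80, 5.15 and 4.75, and the opposite order for the number of fragments, 8868777, 12770092 and 16505239. The part of depth in the replicate spread was not tested. The BRG1 libraries had 14595089, 11506964 and 11740786 fragments and median fold enrichments of 5.15, 5.26 and 5.27. For the test between the antibodies, each library was therefore centered on its own median site.

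After centering, the promoter of *Cep44* and *Fbxo8* was the one of the 6 member promoters called different between the antibodies. Over the 13068 sites found in all 6 replicates, limma called 2.95% relatively higher for PBRM1 and 2.15% relatively higher for BRG1 at an adjusted p under 0.05 (Benjamini-Hochberg over all sites). The shared *Cep44* and *Fbxo8* site was among the former, with a BRG1 minus PBRM1 difference of −0.55 on the log2 scale (95% interval −0.87 to −0.24, adjusted p = 0.0375). This call was lost without PBRM1 replicate 1 (adjusted p = 0.113), PBRM1 replicate 2 (0.127), BRG1 replicate 1 (0.189) or BRG1 replicate 2 (0.109), and without centering (0.482). *Galntl6* had a difference of −0.41 (95% interval −0.75 to −0.06, adjusted p = 0.153) and did not pass, but it did with pileup in place of fold enrichment (−0.86, adjusted p = 0.0230).

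The other member promoters had differences closer to 0. *Hpgd* differed by 0.15 (95% interval −0.13 to 0.44), *Sap30* by 0.05 (−0.24 to 0.33), *Hmgb2* by −0.13 (−0.42 to 0.17) and *Galnt7* by −0.14 (−0.48 to 0.21), with adjusted p from 0.553 to 0.875. The intervals reach from −0.48 to 0.44, so moderate differences remain possible. Before centering, BRG1 was higher by 0.31 at the median of all 13068 sites, so the higher raw BRG1 values of *Hpgd*, *Sap30* and *Hmgb2* have to be read against that shift. Without centering the sign turned for *Hmgb2* (0.23) and *Galnt7* (0.21), and with pileup in place of fold enrichment for *Hmgb2* (0.30).

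At the reference, BRG1 was relatively higher. The *Hand2* promoter, chr8:57320847-57321175, had fold enrichments of 4.65, 3.98 and 3.17 with PBRM1 and 10.2, 6.41 and 9.63 with BRG1, and its centered difference was 0.79 (95% interval 0.41 to 1.17, adjusted p = 0.0177). This call was lost without PBRM1 replicate 2 (adjusted p = 0.0518), BRG1 replicate 1 (0.107) or BRG1 replicate 3 (0.0922).

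**Figure D3:**
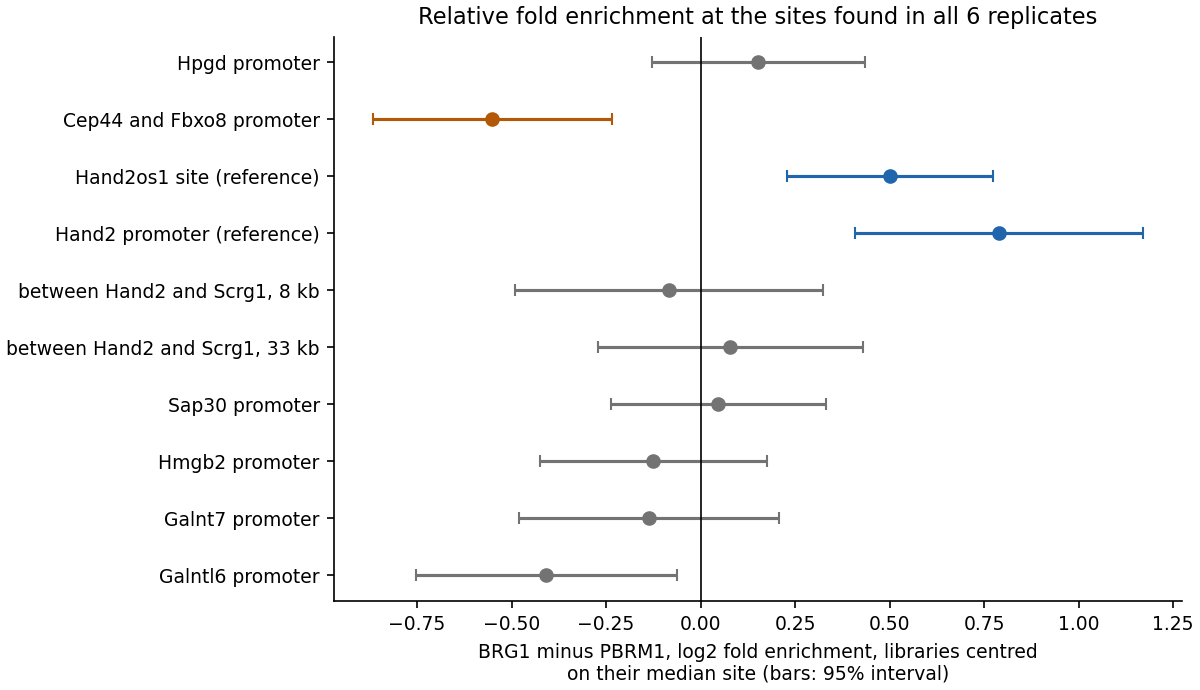
Difference between BRG1 and PBRM1 in log2 fold enrichment, each library centered on its median site, at the 10 neighborhood sites found in all 6 replicates, with 95% intervals from limma. Orange and blue mark sites called relatively higher for PBRM1 and BRG1. The *Cep44* and *Fbxo8* promoter lies left of 0, the 2 *Hand2* sites lie right of it, and the intervals of the other gray sites include 0 apart from *Galntl6*.

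The ratio of a member promoter to the *Hand2* promoter in the same library needs no centering. Mean ratios are geometric, that is, averaged on the log2 scale. With PBRM1, the mean ratio was 2.34 for *Hpgd*, 2.61 for *Cep44* and *Fbxo8*, 1.96 for *Sap30* and 1.53 for *Galntl6*, each above 1 in all 3 replicates. For *Hmgb2* it was 1.78 to 2.14, and for *Galnt7* 0.977 to 1.05. Of 10523 other protein-coding promoter sites, 91.2% were above *Hand2* in all 3 PBRM1 replicates. By pileup, however, *Galntl6* was below *Hand2* in each PBRM1 replicate, with 13, 14 and 12 against 14, 17 and 14. With BRG1, the mean ratio was 1.50 for *Hpgd*, 1.17 for *Sap30*, 1.03 for *Cep44* and *Fbxo8*, and 1.01 for *Hmgb2*. The ratio exceeded 1 in all 3 BRG1 replicates for *Hpgd*, but in 1 for *Hmgb2*. For *Sap30*, and for *Cep44* and *Fbxo8*, it did so in 2. The mean ratio was 0.664 for *Galntl6* and 0.528 for *Galnt7*, both below 1 in all 3 BRG1 replicates, as were 20.4% of the promoter sites.

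By fold enrichment, *Hpgd* was the one member promoter above *Hand2* in all 6 libraries, where 25.6% of the promoter sites were. Its mean log2 ratio was 0.91 ± 0.51 (SD, n = 6; two-sided exact sign-flip test, p = 0.0312, the smallest that 6 libraries allow, adjusted p = 0.121 over 10523 sites). At an adjusted p under 0.05 this exact test called 0 sites in the genome, with 2725 at an unadjusted p under 0.05. With pileup in place of fold enrichment, *Hpgd* was below *Hand2* in BRG1 replicates 1 (45 against 55) and 3 (37 against 45). *Sap30* and *Hmgb2* were then above *Hand2* in all 6 libraries. Mean log2 pileup ratios were 0.43 for *Hpgd*, 0.91 for *Sap30* and 0.83 for *Hmgb2* (sign-flip test, adjusted p = 0.236, 0.101 and 0.101). The ratio of fold enrichments was higher in every PBRM1 than in every BRG1 replicate for all member promoters but *Hpgd*. The same held for 74.8% of the promoter sites, and the 6 member ratios share the *Hand2* value as their denominator. For *Cep44* and *Fbxo8* the ratio was 2.28 to 2.86 with PBRM1 and 0.737 to 1.34 with BRG1, a difference of 1.34 on the log2 scale (exact permutation test, p = 0.1, the smallest that 3 against 3 allows, chosen after the values were seen).

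Inside the gene bodies, outside promoters, 8 sites were found and none was present in all 6 replicates. Of the genome's sites away from promoters that all 3 BRG1 replicates held, 31.8% were also found in all 3 PBRM1 replicates. *Scrg1*, which had no promoter peak, carried a BRG1 site in an intron at chr8:57468709-57469000. The fold enrichment there was 6.33, 5.28 and 6.68 in the BRG1 replicates and 8.73 in the pooled BRG1 list. Of the PBRM1 replicates, replicate 2 alone had a peak, at 4.39, and the pooled PBRM1 list had one at 4.23. The BRG1 summits of the replicates lay within 5 bp of each other. The window around the pooled BRG1 summit is shown, chr8:57468757-57468957 on the plus strand.
Scrg1: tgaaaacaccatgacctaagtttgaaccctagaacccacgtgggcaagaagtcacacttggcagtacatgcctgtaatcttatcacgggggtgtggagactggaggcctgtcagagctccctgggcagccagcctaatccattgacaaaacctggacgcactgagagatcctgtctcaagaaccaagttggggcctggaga
None of the strings searched occurred in it. The reference assembly marks 48.3% of its bases as repetitive, against a median of 1.49% in the windows of 53125 pooled BRG1 peaks away from promoters, and the part of repeats in this peak was not tested.

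*Galnt7* had 4 intronic sites. The site at chr8:57530607-57531262 was found with all 3 PBRM1 replicates, at 3.87, 3.67 and 4.82, and with BRG1 replicates 1 and 2, at 4.82 and 5.27. The site at chr8:57576163-57576846 was found with all 3 BRG1 replicates, at 4.89, 4.25 and 6.48, and with PBRM1 replicates 2 and 3, at 6.07 and 3.99. The other two rested on 2 BRG1 replicates and on 1 PBRM1 replicate. *Galntl6* had 3 sites in its body. The strongest, in an intron at chr8:57799717-57800484, gave 8.58, 6.18 and 7.94 with BRG1 and 5.57 and 4.22 with PBRM1 replicates 1 and 3. At the *Galntl6* promoter the BRG1 values ran from 5.30 to 6.43. The window around its pooled BRG1 summit, chr8:57799823-57800023 on the plus strand, is shown because BRG1 was found there in every replicate.
Galntl6: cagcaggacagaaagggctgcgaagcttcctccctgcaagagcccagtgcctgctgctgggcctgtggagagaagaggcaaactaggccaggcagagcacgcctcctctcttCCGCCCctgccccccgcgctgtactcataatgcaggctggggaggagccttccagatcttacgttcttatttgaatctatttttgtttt
It held 1 GC box, which 10.1% of the windows away from promoters have.

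Between the genes, 27 sites were found, and 2 of them in all 6 replicates. Both lay between *Hand2* and *Scrg1*. The first, at chr8:57328566-57328998, was 7.75 kb downstream of the *Hand2* TSS, and gave 7.55, 6.30 and 3.18 with PBRM1 and 6.54, 5.74 and 7.03 with BRG1. The second, at chr8:57353511-57354168, was 32.9 kb downstream, inside the noncoding 5033428I22Rik, and gave 5.13, 5.34 and 4.95 with PBRM1 and 6.28, 7.38 and 7.14 with BRG1. After centering, neither was called different between the antibodies (−0.08, 95% interval −0.49 to 0.32, and 0.08, 95% interval −0.27 to 0.43, adjusted p = 0.845 and 0.829 by limma). Another site, at an annotated start of 5033428I22Rik, chr8:57340819-57341323, was found with all 3 PBRM1 replicates, at 4.03, 4.74 and 3.97, and with 2 BRG1 replicates, at 3.04 and 5.37. In the genome, 5.06% of sites away from promoters and 41.7% of promoter sites were found in all 6 replicates.

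The window of the first of these sites, chr8:57328635-57328835 on the plus strand, is shown because of its base composition.
Intergenic: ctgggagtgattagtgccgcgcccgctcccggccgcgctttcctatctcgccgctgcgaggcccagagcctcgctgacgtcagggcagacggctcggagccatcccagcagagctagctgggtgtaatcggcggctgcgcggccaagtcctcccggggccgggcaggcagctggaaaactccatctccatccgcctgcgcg
It was 69.7% G and C and held 22 CpG, which placed it at percentile 99.2 for G and C among the pooled BRG1 peaks away from promoters, whose median was 52.7% and 4 CpG. None of the 11 factor strings occurred in it. Of the 4 further strings searched, left in lower case here, it held TCCCAG at 2 places, a string found in 26.8% of windows away from promoters. TCCCAG was also in the promoter windows of *Hmgb2* (at 2 places), *Galnt7*, *Hand2*, and *Cep44* and *Fbxo8*, and in 1 *Galnt7* intron window. The *Hpgd*, *Sap30* and *Galntl6* promoter windows lacked it. The intergenic window did not hold CCAGGGCCT. Nor did it hold GACCACT. The last string, TCGGTG, was absent as well.

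**Figure D4:**
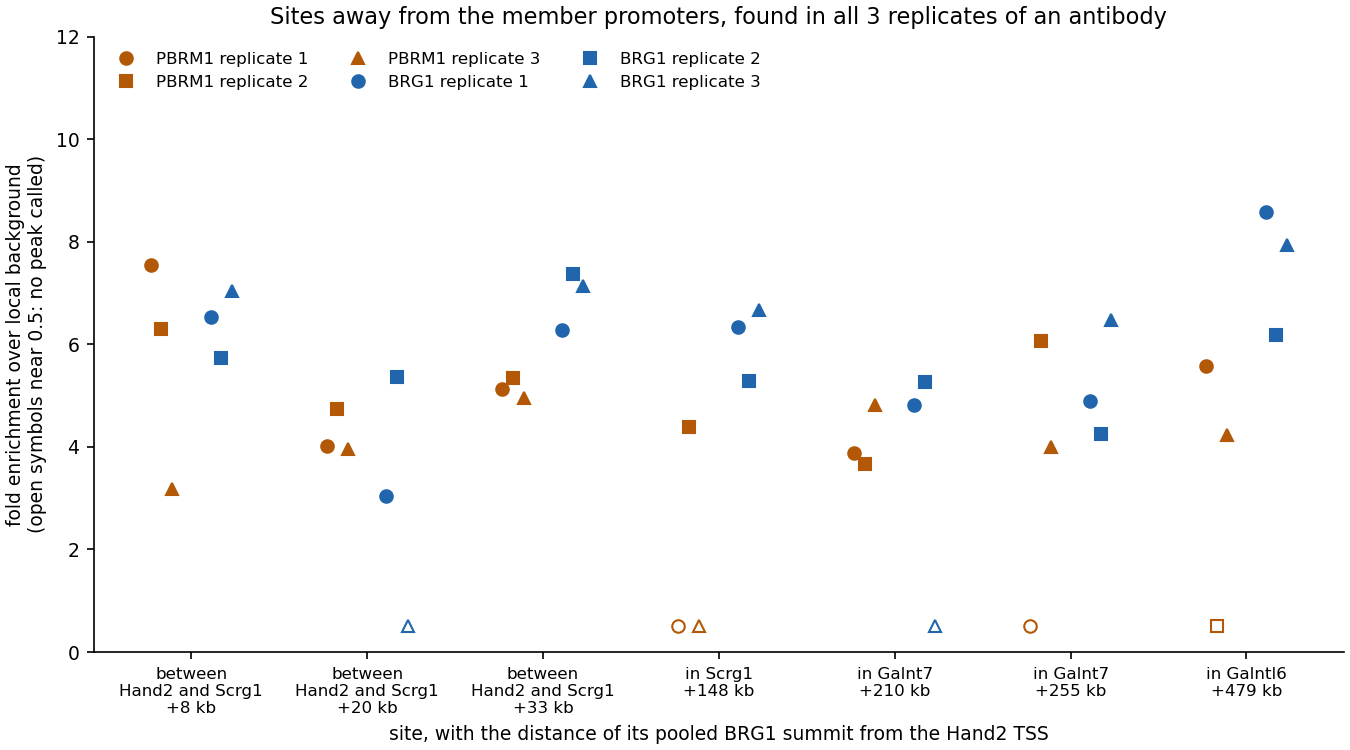
Fold enrichment by replicate at the 7 sites in gene bodies or between genes that were found in all 3 replicates of at least 1 antibody, PBRM1 in orange and BRG1 in blue, with open symbols near 0.5 where a replicate had no peak. BRG1 has 3 values at the *Scrg1* and *Galntl6* sites where PBRM1 has 1 and 2, and at the *Galnt7* site at 255 kb where PBRM1 has 2. The reverse holds at the *Galnt7* site at 210 kb and the site at 20 kb, with 3 PBRM1 and 2 BRG1 values.

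The long segments of the neighborhood differed in how densely the pooled peaks lay. The genome as a whole had 2.02 pooled PBRM1 and 3.03 pooled BRG1 summits per 100 kb. Between *Hand2* and *Scrg1*, 131 kb held 10 PBRM1 and 12 BRG1 summits, or 7.62 and 9.14 per 100 kb. The body of *Galnt7*, at 129 kb, held 7 and 11, or 5.42 and 8.51 per 100 kb. Upstream, the 687 kb from *Fbxo8* to *Hand2os1* held 10 and 17, or 1.46 and 2.47 per 100 kb, and the 210 kb from *Hpgd* to *Cep44* held 0 and 1. The 1139 kb of *Galntl6* held 2 and 5, or 0.176 and 0.439 per 100 kb. These are counts in single pooled lists, without a test, and many of the pooled peaks were weak. Every BRG1 replicate supported 14 of the 61 pooled BRG1 peaks of the neighborhood, and every PBRM1 replicate supported 12 of the 39 pooled PBRM1 peaks.

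**Figure D5:**
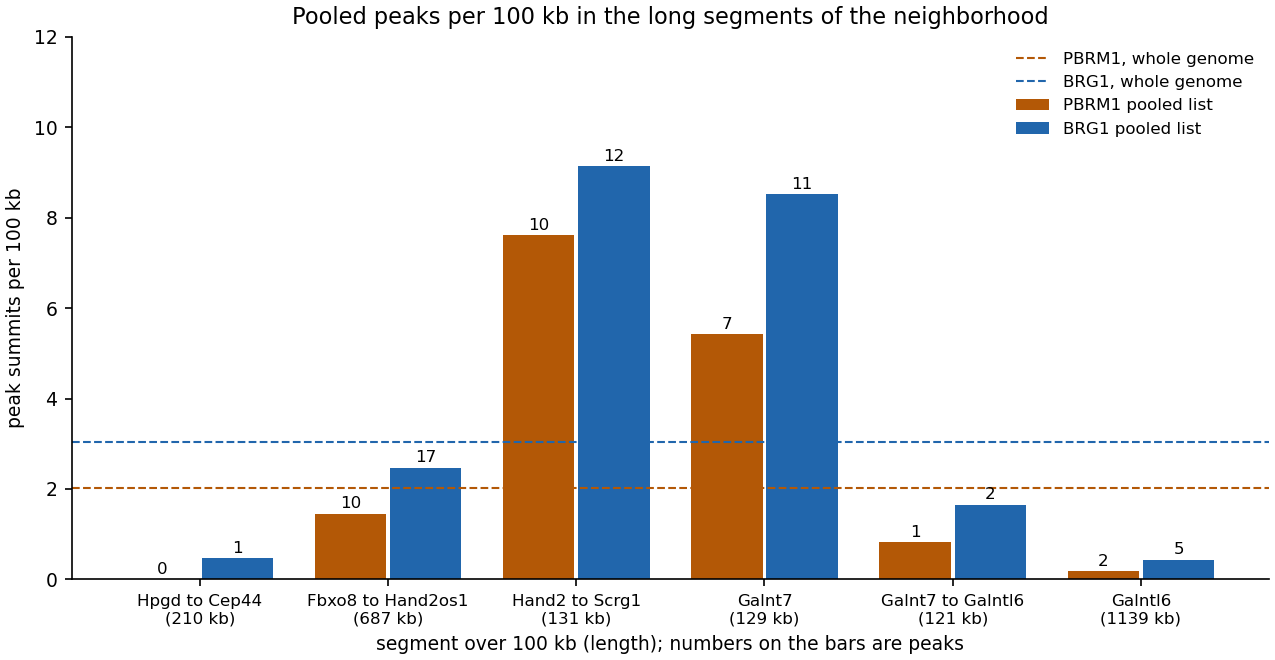
Pooled peak summits per 100 kb in the 6 segments over 100 kb long, with the number of summits on each bar, PBRM1 in orange and BRG1 in blue, and dashed lines at the genome-wide density of each list. The segment between *Hand2* and *Scrg1* and the body of *Galnt7* rise above both lines, and the body of *Galntl6* lies lowest apart from the empty PBRM1 segment next to *Hpgd*.

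The only pooled peak of the region between *Fbxo8* and *Hand2os1* with a fold enrichment above 10 lay in the noncoding Gm33501 at chr8:56883597-56884078. It had a pooled BRG1 fold enrichment of 13.7 and a pileup of 47 fragments. Of the replicates, BRG1 replicate 2 alone listed this site, at 6.80 with a pileup of 11, and no PBRM1 list did. Of the 1591 pooled BRG1 peaks with at least this fold enrichment, 98.5% were supported by all 3 replicates and 8 by 1 replicate. Why the pooled and replicate lists differ here was not tested.

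Other annotated genes lie in the neighborhood, 36 in all besides the 8 members, and 7 of them had a promoter peak in all 8 lists. These were *Hand2*, *Hand2os1*, 2500002B13Rik, AW046200, 4930412F12Rik, BC030500 and 5033428I22Rik. For 5033428I22Rik no single promoter site was found in all 6 replicates. BRG1 replicate 3 had its promoter peak at chr8:57333876-57334071, and PBRM1 replicates 1 and 3 had theirs in the site chr8:57340819-57341323. All but the *Hand2* pair and 5033428I22Rik had their peak at a promoter site shared with *Sap30*, *Galnt7* or *Galntl6*, so peaks at these sites cannot be assigned to a single gene.

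Gene families or pathways of 5 members were read for comparison. Among all protein-coding genes, 51.9% had a promoter peak in all 8 lists, 61.4% in all 3 BRG1 replicates and 26.5% had none in any list. Of 19 O-GalNAc transferase genes, 12 had a promoter peak in all 8 lists, 16 in all 3 BRG1 replicates, and *Galntl5* had none in any list. Means are given only for genes with a promoter site found in all 6 replicates, here 12 of the 19. Among those, the mean BRG1 fold enrichment was highest at *Galnt2* (10.5 ± 0.415) and *Galnt18* (8.97 ± 0.175) and lowest at *Galnt16* (3.88 ± 0.598) and at the neighborhood's *Galnt7* (4.54 ± 0.500; SD, n = 3 throughout). *Galntl6* had 5.71 ± 0.625. Of 4 *Hmgb* genes, 3 had a peak in all 8 lists, with BRG1 means of 11.0 ± 0.460 at *Hmgb3*, 9.67 ± 0.971 at *Hmgb1* and 8.63 ± 0.374 at *Hmgb2*, and *Hmgb4* had none in any list.

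Of 17 genes for SIN3 complex subunits, 16 had a promoter peak in all 8 lists and 17 in all 3 BRG1 replicates. Among the 16 with a site found in all 6 replicates, the BRG1 mean was 10.1 ± 0.438 at *Sap30*, between the highest, *Hdac1* (13.6 ± 0.766) and *Sin3b* (13.4 ± 2.10), and the lowest, *Sin3a* (4.47 ± 0.592) and *Ing1* (5.05 ± 0.344). All 6 genes for prostaglandin uptake and inactivation had a promoter peak in all 8 lists. *Hpgd* had the highest BRG1 values of these, 11.6 to 15.2, followed by the reductase gene *Ptgr2* with a mean of 9.96 ± 1.60, and the transporter genes *Slco2a1* (6.10 ± 1.05) and *Abcc4* (7.27 ± 2.29) had the lowest. No test was run between these genes.

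The labelled cell type was read against promoter peaks, which do not measure expression. Of the stromal markers, 5 of 8 had a promoter peak in all 8 lists, namely *Vim*, *Pdgfra*, *Pdgfrb*, *Hoxa10* and *Nr2f2*. *Col1a1* had one in 6 lists, *Hoxa11* in 5 and *Col3a1* in 4. Of the epithelial markers 1 of 7 had one (*Krt7*), of the endothelial markers 1 of 4 (*Kdr*), and the 4 immune markers, *Ptprc*, *Cd68*, *Csf1r* and *Itgam*, had no promoter peak in any list. In all 3 BRG1 replicates, 7 stromal, 4 epithelial and 3 endothelial markers had one. Of all protein-coding genes, 51.9% had a promoter peak in all 8 lists, 61.4% in all 3 BRG1 replicates and 26.5% in no list. With so few markers, these counts are a description.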

How the data were processed

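PBRM1 and BRG1 were profiled by ChIC-Seq in 3 replicates each. According to the methods and labels, the authors trimmed the read pairs with cutadapt, aligned them to mm10 (GRCm38.p5 in the submitters' processing notes) with Bowtie2, filtered them by mapping quality, removed duplicates, and ran MACS 2.2.7.1 on the replicates singly and on all fragments of an antibody together. The file headers give a q-value cutoff of 0.05, a local background of up to 10000 bp and no control. Each deposited list holds peak positions and summits, a pileup (the fragment coverage signal), −log10 p-values and q-values, and a fold enrichment, a ratio to local background. The labels and the methods differ on the number of cells and the fixation time. Depth was 8868777 to 16505239 fragments per replicate, and its part in which weak peaks were called was not tested.

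From these values, replicate peaks that shared at least 1 bp were joined into 66623 sites, and a site took the highest fold enrichment of each library. Genes and starts came from GENCODE M21 for mm10, with promoters within 2 kb of any TSS, and sequences from RefSeq and GRCm38. Sites found in all 6 replicates were compared with limma 3.58.1 in R 4.3.3 (log2 fold enrichment, libraries centered on their median, trend, Benjamini-Hochberg over all sites). Ratios to the *Hand2* promoter were tested with a two-sided exact sign-flip test and shares of peaks with a two-sided exact permutation test. Other steps used Python 3.11.15, numpy 2.4.6, pandas 2.3.3 and scipy 1.17.1, and figures matplotlib 3.10.9. The limma step was tested on simulated data for the antibody comparison with 13068 sites. It recovered 198 of 200 sites changed by 2 on the log2 scale, with 7 false calls. The differences at the neighborhood sites were smaller, and recovery at their size was not tested. Named genes were the 8 members, *Hand2* and *Hand2os1*, other neighborhood genes with a promoter peak in all 8 lists, and from each family list the 2 genes with the highest and the 2 with the lowest mean BRG1 fold enrichment and those without a promoter peak. The *Gm33501* peak and the epithelial and endothelial markers named were chosen after their values were seen. The members, lists, strings and tests were chosen with earlier results of these data known. Alternatives were other promoter distances, annotations and thresholds, other normalizations, pileup in place of fold enrichment, a replicate block and each replicate left out.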

Additional observations from a re-analysis of the deposited data

How the results depend on the processing

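Of the 8 genes, 5 to 7 had a promoter peak in all 3 PBRM1 replicates and 6 or 7 in all 3 BRG1 replicates under each promoter distance, annotation and threshold tried. The PBRM1 count was 6 with promoters of 1 kb, and 5 with −log10 q or fold enrichment of at least 5. The BRG1 count was 6 at either threshold. The shares over all protein-coding genes, 52.2% and 61.4%, belong to the main setting, so the counts at other settings have no share beside them. Pooled peaks away from promoters were less stable. With −log10 q of at least 5, pooled PBRM1 peaks fell from 8 to 4 in gene bodies and from 20 to 8 between genes, and pooled BRG1 peaks in gene bodies from 15 to 6. When a pooled peak had to be found in all 3 replicates, 1 PBRM1 and 3 BRG1 peaks were left in gene bodies and 3 and 2 between genes.

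The antibody comparison called 667 sites, 281 higher for BRG1 (42.1%) and 386 higher for PBRM1. Without centering it called 2485, of which 2470 were higher for BRG1 (99.4%) and 15 for PBRM1. Quantile normalization gave 214 higher for PBRM1 (56.1% of calls higher for BRG1), and pileup gave 1236 calls, 693 of them higher for BRG1. Leaving out 1 replicate gave 174 (without BRG1 replicate 3) to 710 calls (without PBRM1 replicate 3), 75 to 343 of them higher for BRG1 and 99 to 367 higher for PBRM1. There were 302 calls without PBRM1 replicate 2, 195 without BRG1 replicate 1 and 221 without BRG1 replicate 2. With pileup, *Galntl6* was called (−0.86, adjusted p = 0.0230 by limma).

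Differences near 0 changed sign. The BRG1 minus PBRM1 difference turned to 0.23 for *Hmgb2* and 0.21 for *Galnt7* without centering, 0.043 for *Galnt7* with quantile normalization and 0.30 for *Hmgb2* with pileup. It was −0.0027 to 0.085 for *Sap30* when 1 replicate was left out. The log2 ratio of *Galntl6* to *Hand2* was −1.07 with pileup and −0.11 to 0.18 without 1 replicate. The BRG1 minus PBRM1 difference in neighborhood peaks per 10000, −0.039, became 2.55 with −log10 q of at least 5 and 0.805 when counts were scaled to the fragments of each library (exact permutation p = 0.1 for both, the smallest possible), and ran from −0.574 to 0.677 without 1 replicate. The causes were not tested.

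Deviations of the PBRM1 and BRG1 libraries with the same replicate number were hardly correlated (−0.045, −0.013 and −0.013). Noise between libraries could hide a shared pool of animals, so this does not settle whether the numbers pair the samples. With the replicate block, 736 sites were called, 308 higher for BRG1 and 428 for PBRM1, 0 promoters passed against *Hand2*, and the BRG1 minus PBRM1 difference in peaks per 10000 was −0.039. The block changed no call for a member promoter. A missing peak does not show that a protein was absent.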
